A study of Homo sapiens with 8 samples.

Results

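The ETS transcription factor genes SPI1, ETS1, ETS2, FLI1, ELF1, ELF2, ELF4, ETV3, ETV6 and GABPA were examined in a list of Cut&Run peaks of an anti-PML::RARA antibody. PML::RARA is the fusion protein of acute promyelocytic leukemia. Cut&Run tethers a nuclease to the antibody inside nuclei, and the fragments cut free around the bound protein are sequenced. The peaks at these genes were chosen by name and position: every peak to which the authors had given the symbol of 1 of the 10 genes, and every peak without a symbol on the same chromosome whose centre lay within 50 kb of the centre of such a peak. This gave 23 of the 15412 peaks, of which 8 carried an ETS symbol (of 7169 peaks with any symbol) and 15 carried none (of 8243). Peaks with a symbol are called labelled here. The authors gave a symbol where the apex overlapped a promoter.

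The cells were U937-PR9, a single monocytic line with a PML::RARA transgene under a zinc-inducible promoter, given 100 μM ZnSO4 for 5 h (induced) or water (uninduced). The study made 8 libraries, with anti-PML::RARA and anti-RARA antibodies on 2 replicates of each condition. The list analysed holds the peaks of anti-PML::RARA in induced cells that recurred in both replicates, and the other 3 groups were not analysed here. No zinc-treated cells without the transgene were among the groups, so an effect of zinc cannot be told apart from that of the fusion protein, and the authors called each peak against a paired control as background, whose signal is not in the list. The list gives 1 total signal and 1 largest signal per peak. The largest signal is called the height. No spread between replicates, no depth and no test of a difference can be had from it, so the values of the ETS peaks are set beside those of the whole list. Ranks run over all 15412 peaks, with rank 1 for the highest or widest and the best rank for ties. The median height of the list was 25 and the median width 829.5 bp.

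ETS factors share a winged helix-turn-helix domain that binds DNA around a GGAA core, and the flanking bases differ between classes of the family. SPI1 encodes PU.1, which the authors describe as a master regulator of myeloid differentiation. Several other members act in blood cell development or are rearranged in leukemia. RARA, the partner that gives PML::RARA its DNA-binding domain, is a nuclear receptor that binds pairs of AGGTCA-like half-sites.

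The following stretches of the plus strand of hg19 carry the peaks on which the description turns. They are the densest groups of AGGTCA half-sites at SPI1 and ELF4, and 101 bases around the apex of some of the other peaks. In the first line and in the line for the left end of the ELF4 peak, capitals mark AGGTCA or its reverse complement TGACCT only. In the others they mark any match to the ETS motif GGAAGT, the nuclear receptor half-site AGGTCA, the GC box GGGCGG or the RUNX motif TGTGGT, read on either strand, so that a minus-strand GC box appears as CCGCCC. None of these stretches overlaps an annotated UTR. The SPI1 stretch named for its promoter peak lies in intron 1, 1645 bp downstream of the nearest start site. It is centred on the start of the interval of largest signal, whose end is missing.
SPI1 intron 3, chr11:47380959-47381251: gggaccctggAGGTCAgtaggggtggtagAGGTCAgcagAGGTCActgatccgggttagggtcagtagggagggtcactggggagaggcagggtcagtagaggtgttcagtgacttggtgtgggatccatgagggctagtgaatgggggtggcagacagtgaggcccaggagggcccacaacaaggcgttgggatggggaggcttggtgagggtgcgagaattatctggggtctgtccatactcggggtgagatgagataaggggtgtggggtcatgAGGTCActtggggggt
SPI1 promoter peak apex, chr11:47398247-47398347: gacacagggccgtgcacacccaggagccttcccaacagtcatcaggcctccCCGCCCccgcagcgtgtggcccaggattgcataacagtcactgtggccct
SPI1 upstream peak apex, chr11:47416332-47416432: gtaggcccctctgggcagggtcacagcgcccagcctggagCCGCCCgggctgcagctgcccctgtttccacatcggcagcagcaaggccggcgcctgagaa
ELF4 intron 1, highest peak, left end, chrX:129225704-129225802: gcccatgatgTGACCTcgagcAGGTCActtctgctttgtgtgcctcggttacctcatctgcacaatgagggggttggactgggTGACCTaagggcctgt
ELF4 promoter peak apex, chrX:129244868-129244968: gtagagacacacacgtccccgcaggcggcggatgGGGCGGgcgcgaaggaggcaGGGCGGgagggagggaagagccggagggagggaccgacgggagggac
FLI1 intron 1, peak of height 42, apex, chr11:128583539-128583639: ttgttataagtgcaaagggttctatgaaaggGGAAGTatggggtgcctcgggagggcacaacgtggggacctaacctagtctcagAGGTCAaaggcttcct
FLI1 intron 1, peak with the SENCR symbol, apex, chr11:128565887-128565987: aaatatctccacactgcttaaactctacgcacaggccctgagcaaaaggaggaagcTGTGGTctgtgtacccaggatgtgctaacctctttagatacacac
ELF2 labelled peak apex, chr4:140004247-140004347: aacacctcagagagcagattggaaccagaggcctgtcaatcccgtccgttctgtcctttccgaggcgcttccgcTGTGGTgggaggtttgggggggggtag

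Labelled peaks were found for 8 of the 10 genes, and ELF1 and GABPA had no row under their own symbol. Among all 20149 protein-coding genes, 29.9% had a labelled peak. The 10 genes were chosen with earlier results of these data known, and of 18 other ETS family genes 7 had a labelled peak. The 8 genes had 1 labelled peak each. These peaks were of ordinary height and, by their median, wider than labelled peaks at large. Their heights were 38 at ELF2, 31 at ETS1, 28 at ETS2, 27 at ETV3, 23 at ELF4, 22 at SPI1, 20 at ETV6 and 17 at FLI1, a median of 25 against 26 for all labelled peaks. Their median width was 1537.5 bp, from 405 bp at FLI1 to 2500 bp at SPI1, against 1108 bp for all labelled peaks. Above the list median were 4 of the 8 by height, against 52.3% of all labelled peaks, and 6 of the 8 by width, against 70.9%, so that neither count stands far from that of labelled peaks in general. The widest 25% of the list, over 1268 bp, held 5 of the 8 and 39.6% of all labelled peaks.

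The peaks without a symbol were on balance higher than the labelled ones, with a wide overlap. Of the 15, 10 were higher than the labelled peak of their gene and 5 were lower. The unlabelled peak was the higher in 40% of all such pairs of the list within 50 kb. FLI1 and ELF4 supplied 5 and 4 of the 15, set against the same labelled peak each, so these genes weigh heavily in the count. The labelled FLI1 peak was only 17 high, while a peak with the symbol SENCR in the 5′ part of FLI1 was 57 high. The 15 had a median height of 33, from 16 to 51, against 23 for all unlabelled peaks, and a median width of 1219 bp, from 283 to 2615 bp, against 634 bp. Above the list median were 9 of the 15 by height, against 42.2% of all unlabelled peaks, and 9 by width, against 31.8%. They lay 16.8 to 49.5 kb from the centre of the labelled peak, and 12 of the 15 had their apex in an intron of the ETS gene itself. FLI1 and ELF4 supplied 5 and 4 of these 12. The matching share for all unlabelled peaks near a labelled one was not counted, so the 12 cannot be called unusual. The limit of 50 kb fell between a peak upstream of ETS2 at 49.5 kb with a height of 24, which was included, and a peak in intron 1 of ETS1 about 54 kb from its labelled peak with a height of 19, which was not. With a limit of 100 kb the median height of the unlabelled peaks was 24, close to that of all unlabelled peaks, so the higher median belongs to the peaks within 50 kb.

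**Figure D1:**
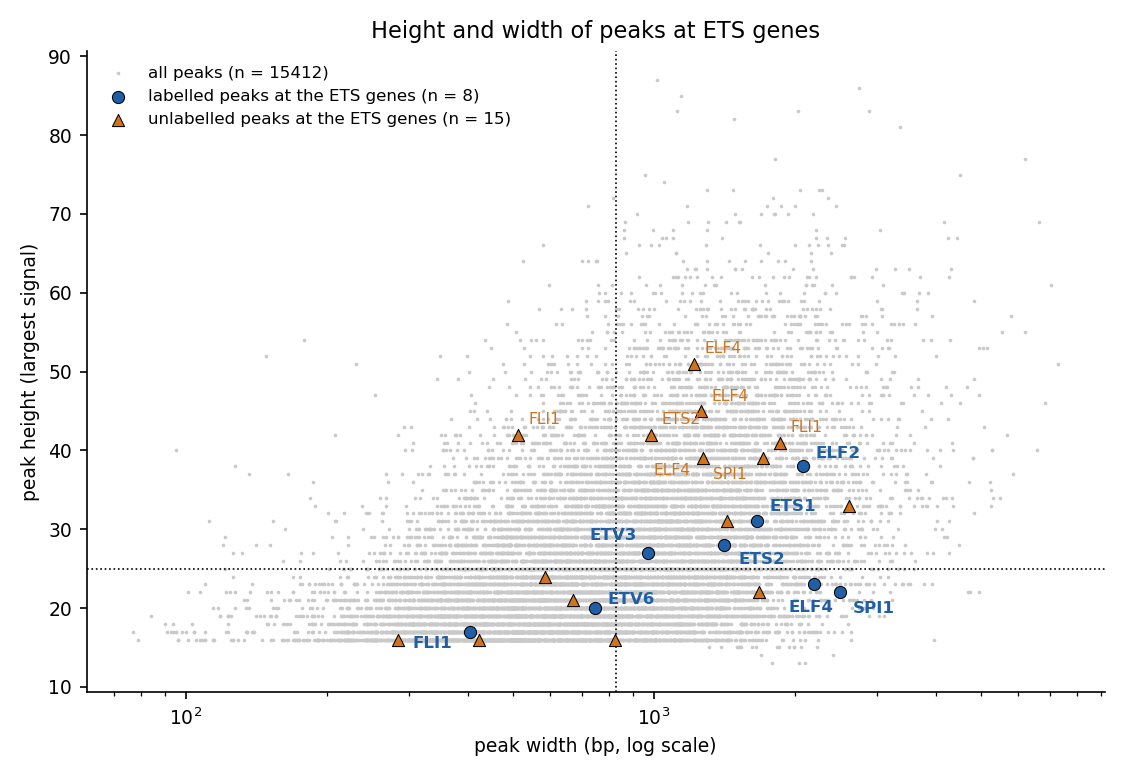
Height (largest signal, no unit given) against width (bp, log scale) of each peak, with all 15412 peaks in grey, the 8 labelled ETS peaks as blue circles and the 15 unlabelled peaks at ETS genes as orange triangles. Dotted lines mark the list medians of 25 and 829.5 bp; the labelled peaks of SPI1 and ELF4 lie far to the right and below the median height, while the highest triangle, at 51, belongs to ELF4.

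SPI1 (ENSG00000066336, minus strand, chr11:47376411-47400098) stood out by the width of its peaks. Its labelled peak, chr11:47398097-47400596, was 2500 bp wide (rank 452) but only 22 high (rank 9138), with a total signal of 20359. It reached across the 5′ end of the gene, and the start of its largest-signal interval, whose end is missing, lay 1645 bp downstream of the nearest start site, in intron 1. SPI1 was flanked by an unlabelled peak on each side at nearly the same distance. The peak in intron 3, chr11:47380421-47382131, 18.1 kb from the labelled one, was 1711 bp wide (rank 1714) and 39 high (rank 2104). Its nearest protein-coding start site was not that of SPI1 but of MYBPC3, a cardiac muscle gene, 7021 bp away. The other flanking peak, chr11:47414826-47417440, lay 16.8 kb from the labelled one, with its apex 16284 bp upstream of the SPI1 start. It was the widest of the 23, at 2615 bp (rank 380), and 33 high (rank 3709). This apex lay in an intron of SLC39A13-AS1, and the nearest protein-coding start, 12301 bp away, was that of SLC39A13, which encodes a zinc transporter. A labelled peak of SLC39A13 itself (height 46) and one of PSMC3, a proteasome subunit gene (height 30), also lay within 50 kb of the SPI1 peak. Which gene the upstream peak acts on cannot be read from the list.

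ETS1 (ENSG00000134954, minus strand, chr11:128328656-128457453), a factor of lymphoid cells, had its labelled peak at an internal start site. The peak, chr11:128391291-128392952, was 31 high (rank 4397) and 1662 bp wide (rank 1854). Its apex lay 1 bp downstream of a start site in intron 3 of the canonical transcript, 65249 bp downstream of the canonical start. The 2 unlabelled peaks within 50 kb were weak. They lay in intron 7 (chr11:128353399-128353681, 283 bp, width rank 14733) and intron 5 (chr11:128358300-128358722, 423 bp, width rank 13084), both 16 high (rank 14278), near the lowest height of 13 in the list. ETS1 was the only gene of the 5 with unlabelled neighbours at which no neighbour was higher than the labelled peak.

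ETS2 (ENSG00000157557, plus strand, chr21:40177107-40196879), a widely expressed factor activated through MAP kinase signalling, had a labelled peak at its start. The peak, chr21:40176605-40178017, was 28 high (rank 5666) and 1413 bp wide (rank 3010), with its apex 175 bp upstream of the nearest start site. A higher peak lay beyond the 3′ end of the gene, at chr21:40203116-40204101. It was 42 high (rank 1553) and 986 bp wide (rank 6082), and its apex, 25626 bp downstream of the canonical start, lay in an intron of the gene ENSG00000205622. The second unlabelled peak, chr21:40127557-40128141, was intergenic, 24 high (rank 7817) and 585 bp wide (rank 10771). No other peak lay over ETS2.

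FLI1 (ENSG00000151702, plus strand, chr11:128556430-128683162), which acts in blood stem cells and megakaryocytes and is fused to EWSR1 in Ewing sarcoma, had the most peaks and the weakest labelled one. The labelled peak, chr11:128627148-128627552, was 17 high (rank 13294) and 405 bp wide (rank 13312). Its apex lay in intron 1, 686 bp upstream of an internal start site and 63348 bp downstream of the canonical start. Between this peak and the canonical start, intron 1 held 5 unlabelled peaks. The first, chr11:128583456-128583968, was 42 high (rank 1553) and 513 bp wide (rank 11824), and the last, chr11:128595127-128596984, was 41 high (rank 1727) and 1858 bp wide (rank 1357). The 3 between them, chr11:128586131-128587560, chr11:128588611-128589436 and chr11:128590360-128591030, were 31, 16 and 21 high (ranks 4397, 14278 and 9879). Their widths were 1430, 826 and 671 bp (ranks 2913, 7734 and 9598).

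The highest peak over FLI1 was not among the 23, because the authors' symbol for it is SENCR, a long noncoding RNA transcribed antisense from the 5′ end of FLI1. This peak, chr11:128563669-128566432, was 57 high (rank 234) and 2764 bp wide (rank 305), which put it above 98.2% of the list by height and above 98.0% by width. Its apex lay 1970 bp downstream of the canonical FLI1 start, in intron 1. Counted by position, the 5′ part of FLI1 therefore held a peak 57 high, while the peak with the FLI1 symbol was 17 high.

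The 3 ELF genes encode factors of the E74-like class, of which ELF4 restrains the proliferation of CD8 T cells and acts in NK cells. ELF4 (ENSG00000102034, minus strand, chrX:129197930-129244691) had a wide, low labelled peak and a group of higher ones in intron 1. The labelled peak, chrX:129243016-129245207, was 2192 bp wide (rank 743) and 23 high (rank 8433), with its apex 227 bp upstream of the nearest start site. Of the 4 intronic peaks, the one nearest to the start, chrX:129225527-129226745, was the highest of the 23, at 51 (rank 551, above 96.0% of the list), and was 1219 bp wide (rank 4190). Its apex lay 18023 bp downstream of the nearest start site. The next, chrX:129220239-129221497, was 45 high (rank 1115) and 1259 bp wide (rank 3918). The remaining peaks, chrX:129217859-129219534 and chrX:129216178-129217450, were 22 and 39 high (ranks 9138 and 2104) and 1676 and 1273 bp wide (ranks 1802 and 3826). Of the 4, 3 were thus higher than the ELF4 labelled peak and 1 was lower.

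ELF2 (ENSG00000109381, minus strand, chr4:139949266-140098372), which is made as activating and repressing isoforms, had the highest labelled peak of the 8. The peak, chr4:140003987-140006063, was 38 high (rank 2313) and 2077 bp wide (rank 915), with a total signal of 23003. Its apex lay 1081 bp downstream of an internal start site, in intron 4 of the canonical transcript and 94075 bp from the canonical start. No unlabelled peak lay within 50 kb of it. The canonical start of ELF2 was instead covered by a peak without a symbol that the 50 kb limit leaves out, chr4:140097151-140100047, 34 high (rank 3401) and 2897 bp wide (rank 253), with its apex 837 bp upstream of that start.

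ELF1 (ENSG00000120690, minus strand, chr13:41506060-41635576), a regulator of blood and immune genes, had no labelled row. A wide peak nevertheless covered its 5′ end. The peak, chr13:41634127-41636379, carried no symbol, was 28 high (rank 5666) and 2253 bp wide (rank 657, wider than 95.7% of the list), and had its apex 126 bp downstream of an ELF1 start site, in a UTR.

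GABPA (ENSG00000154727, plus strand, chr21:27106881-27144771) encodes the only ETS factor that works as a fixed complex with a separate partner subunit, GABPB. It too had no labelled row, and its start was covered by a peak with another symbol. The peak, chr21:27106758-27107737, was 35 high (rank 3088) and 980 bp wide (rank 6147), and its apex lay 26 bp downstream of the GABPA start. The authors' symbol for it is ATP5PF, a mitochondrial ATP synthase gene that is read from the same region in the opposite direction. A second peak with the ATP5PF symbol, chr21:27107842-27108389, was 20 high.

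The 2 repressors had 1 peak of moderate or low height each at their starts. ETV3 (ENSG00000117036, minus strand, chr1:157090983-157108266), which restrains proliferation during macrophage differentiation, had a labelled peak 27 high (rank 6155) and 969 bp wide (rank 6259). The peak, chr1:157108010-157108978, peaked 1 bp upstream of a start site. ETV6 (ENSG00000139083, plus strand, chr12:11802608-12048311), which is fused to RUNX1 in childhood leukemia, had a labelled peak 20 high (rank 10691) and 749 bp wide (rank 8650), chr12:11801623-11802371, whose apex was 754 bp from the start, on the upstream side. Neither had an unlabelled peak within 50 kb. Far inside ETV6, in intron 4, lay 2 more low peaks, chr12:12008547-12009325 (height 20) and chr12:12009838-12010320 (height 19).

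**Figure D2:**
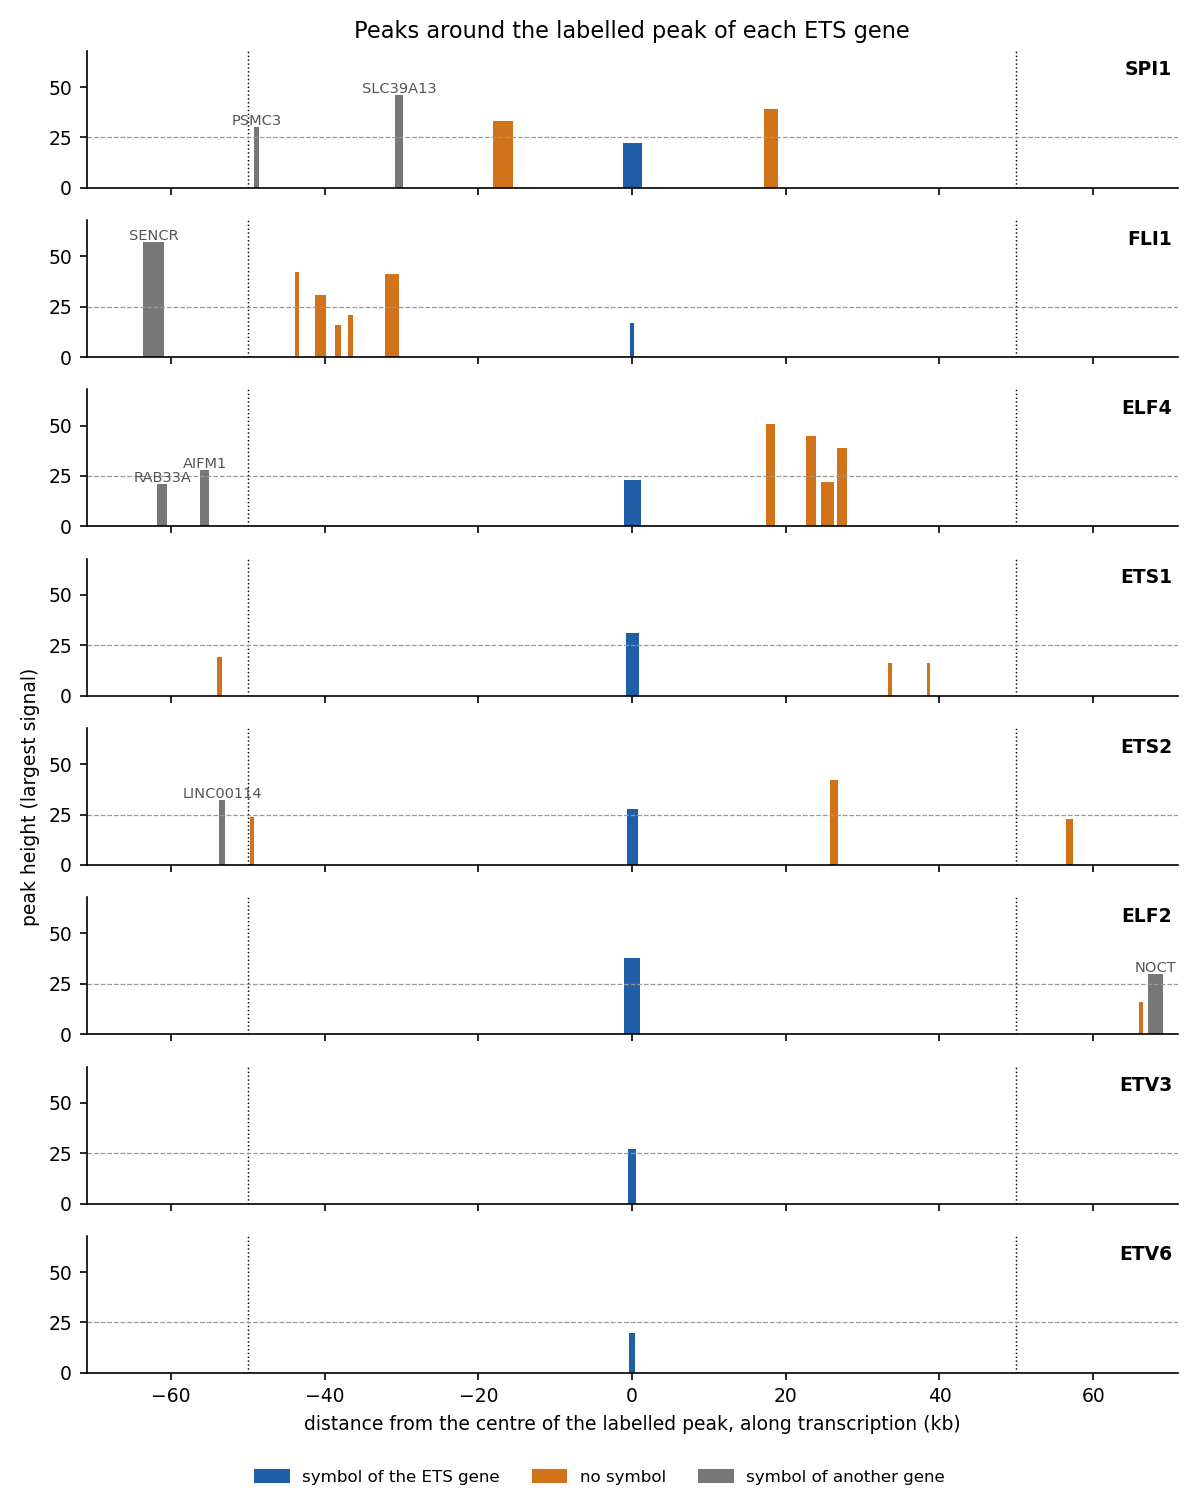
Peaks around the labelled peak of each of the 8 genes, with the distance from its centre along the direction of transcription (kb) on the x axis and the height on the y axis; blue bars carry the ETS symbol, orange bars none and grey bars another symbol, and bars are drawn at least 0.5 kb wide. Dotted lines mark the 50 kb limit and dashed lines the list median height of 25; SPI1, FLI1, ELF4 and ETS2 have an orange bar higher than the blue one, and ETV3 and ETV6 have no bar but their own.

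The genes thus differed in how many unlabelled peaks lay nearby. FLI1 had 5, ELF4 had 4, and SPI1, ETS1 and ETS2 had 2 each, while ELF2, ETV3 and ETV6 had 0. At least 1 was found for 5 of the 8 labelled ETS peaks and for 48.5% of all labelled peaks. At least 4 were found for 2 of the 8, FLI1 and ELF4, and for 8.15% of all labelled peaks. Of the 5 genes with such a neighbour, 4 had one higher than the labelled peak, which held for 52.5% of all labelled peaks with a neighbour. No unlabelled peak lay within 10 kb of any of the 8, whereas 18.1% of all labelled peaks had one. By position rather than by symbol, all 10 genes had at least 1 peak over the gene, 27 peaks in all. This held for 45% of all protein-coding genes and for 50.7% of those at least as long as ETV3, the shortest of the 10 at 17.3 kb. An apex within 1 kb of a start site of their own was found for 9 of the 10, SPI1 being the exception, and for 39.2% of all protein-coding genes. For SPI1 the apex was the start of an interval whose end is missing, while its labelled peak reached across the 5′ end of the gene.

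By their medians, the labelled ETS peaks were close to all labelled peaks in base composition, but single peaks differed widely. Within 200 bp of the apex, their median GC content was 68.3% (64.3% for all labelled peaks). The median number of CpG in the same windows was 36 (33 for all labelled peaks). GC content ran from 49.1% at FLI1 to 77.3% at ELF4. The windows of ETS1, ELF4, ETV3 and ETV6 had 60, 56, 49 and 43 CpG. Those of ETS2, ELF2, SPI1 and FLI1 had 29, 19, 6 and 3. The unlabelled ETS peaks had a median GC content of 57.9% (52.9% for all unlabelled peaks). GGGCGG, the GC box bound by SP factors, lay within 200 bp of the apex of 7 of the 8 labelled peaks, FLI1 being the exception, and in 76.2% of all labelled peaks. The labelled ELF4 peak held 22 copies over its whole width. Among the unlabelled peaks, 4 of 15 had a GC box near the apex, against 24.9% of all unlabelled peaks.

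Near the apex, the ETS motif GGAAGT was about as common in the ETS genes' own peaks as in the list. Over the whole peak the shares were higher, where wide peaks have more room for a match. In the labelled ETS peaks the number of copies per kb was also higher than in all labelled peaks. The motif GGAAGT lay within 200 bp of the apex in 3 of 8 labelled peaks (36.7% of all labelled peaks) and in 6 of 15 unlabelled ones (47.1% of all unlabelled peaks). The labelled peaks with a match were those of ELF2, ETS1 and ETV3. Anywhere in the peak, it was found in 6 of 8 labelled peaks (61.7% of all labelled peaks) and in 11 of 15 unlabelled ones (58.9%). Per length, the labelled ETS peaks held 1.42 copies per kb, against 0.865 in all labelled peaks, and the unlabelled ones 1.27, against 1.24. The labelled ELF2 peak alone held 6 copies, the most of the 8, while those of ETV6 and FLI1 held 0. The longer site CCGGAAGT, which contains GGAAGT and is preferred by the ETS1, FLI1, GABPA and ELF class, was found in none of the 23, near the apex or anywhere in the peak. It lay near the apex of 8.77% of all labelled and 1.98% of all unlabelled peaks, and anywhere in the peak in 12.3% and 2.79%. At these rates few matches would be met among 23 peaks. The PU.1-type site GAGGAAGT, which also contains GGAAGT, lay near the apex of 1 of the 23, the weak ETS1 peak in intron 7, against 5.27% of all labelled and 11.8% of all unlabelled peaks. Anywhere in the peak, it was found in 1 of 8 labelled peaks (11.0% of all labelled peaks) and in 4 of 15 unlabelled ones (15.4%). The RUNX site TGTGGT lay near the apex of 1 of 8 labelled peaks, that of ELF2 (15.4% of all labelled peaks), and of 5 of 15 unlabelled ones (40.3%).

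AGGTCA lay within 200 bp of the apex in 4 of 8 labelled peaks, those of ELF2, ETV3, ETV6 and FLI1, where 16.6% of all labelled peaks had it. It was found there in 5 of 15 unlabelled peaks, against 28.8%. The first of these shares depended on where the window was placed. Within 200 bp of the middle of the peak, rather than of the apex, 2 of 8 labelled peaks had it, against 16.4% of all labelled peaks. Anywhere in the peak, it was found in 7 of 8 labelled peaks, ETS1 being the exception, against 42.2% of all labelled peaks. It was found in 8 of 15 unlabelled ones, against 43.5%. Wide peaks have more room for a match, and the ETS peaks were wider by their medians. Per length, the labelled ETS peaks held 0.669 copies per kb, against 0.512 in all labelled peaks. The unlabelled ones held 1.33, against 0.838. The rate of 1.33 rests largely on the SPI1 peak in intron 3, with 7 copies, and the highest ELF4 peak, with 6. No other unlabelled ETS peak held more than 3, so the higher rate is not a trait of the 15 at large.

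Over the whole peak, AGGTCA was dense at SPI1 and ELF4, which were singled out after the values had been seen. The SPI1 peak in intron 3 held 7 copies, 6 on the plus and 1 on the minus strand, whereas 0.117% of all peaks (18) held 7 or more. Wide peaks hold more by their length, so the peak was also set beside the 1715 peaks at least as wide, which had a median of 1 copy and of which 14 (0.816%) held 7 or more. The sequence printed above for intron 3 shows 4 of the copies, all on the plus strand. The first 3 stand 13 and 4 bases apart, and the fourth, 232 bases further on, lies 36 bp from the apex. The shorter word GGTCA occurs 8 times in this stretch, always on the plus strand, so that part of it is a row of near copies. The highest ELF4 peak held 6 copies, 3 on each strand, whereas 0.214% of all peaks (33) held 6 or more. Of the 4199 peaks at least as wide, 30 (0.714%) did. The stretch at the left end of the ELF4 peak shows 3 of them, the first and second 5 bases apart and on opposite strands. The SPI1 upstream peak held 3 copies and the SPI1 labelled peak 2. A match to these letters is not evidence of a bound site.

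**Figure D3:**
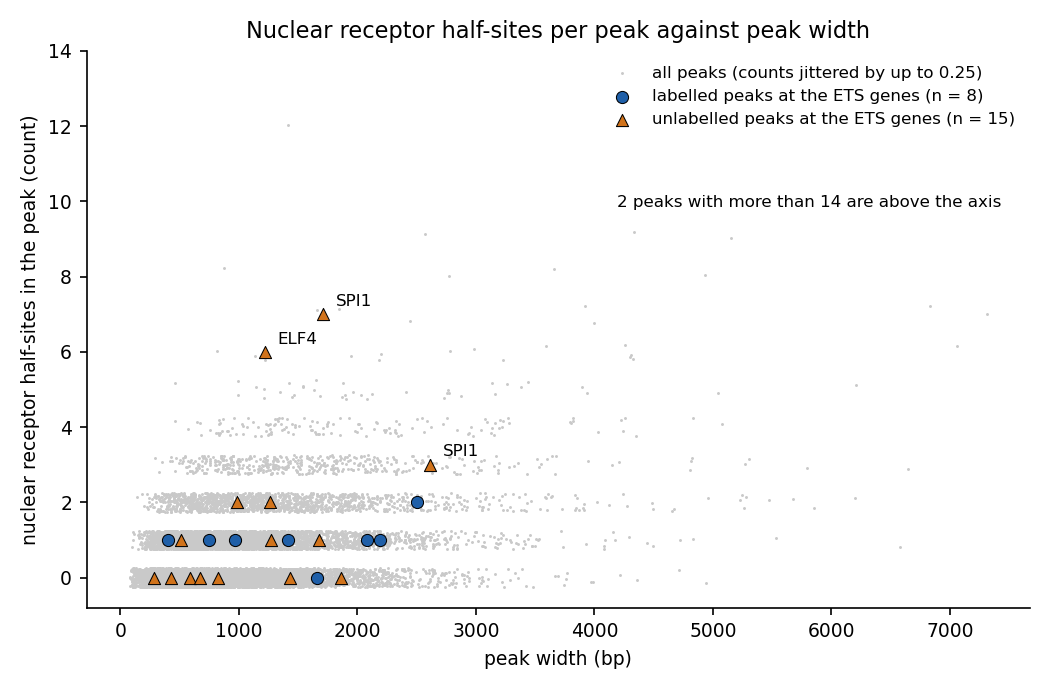
Number of exact AGGTCA half-sites on either strand (y axis) against the width of the peak (bp, x axis), with all peaks in grey and jittered by up to 0.25 for display, labelled ETS peaks as blue circles and unlabelled peaks at ETS genes as orange triangles. The SPI1 intron 3 peak, with 7, and the highest ELF4 peak, with 6, lie above the bulk of peaks of their width; 2 peaks of the list with more than 14 lie above the axis.

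Among the other 18 ETS family genes, 7 had a labelled peak, so that 15 of 28 did in the family as a whole. Of all protein-coding genes, 29.9% had one. The 8 labelled peaks of these genes had a median height of 28 and a median width of 1287.5 bp. ETV5, a factor of the PEA3 class, had the highest of any ETS gene. This peak, chr3:185825409-185827628, was 68 high (rank 43, above 99.7% of the list) and 2220 bp wide, and its apex lay 195 bp upstream of the ETV5 start. A second ETV5 labelled peak was 42 high. ETV4, of the same class, and ELK1 were 32 high, ELK3 and ELK4 were 24 high, ERF, a repressor, was 20 high and ETV1, the third of the PEA3 class, was 18 high. No symbol was given for ETV2, ETV3L, ETV7, ERG, FEV, SPIB, SPIC, ELF3, ELF5, EHF and SPDEF. Of these, ETV2 had an unlabelled peak over the gene (height 38) and ERG, the closest relative of FLI1, 2 unlabelled intronic ones (heights 31 and 28). The other 9 had no peak over the gene. Among them were SPIB and SPIC, the closest relatives of SPI1, and the epithelial factors ELF3, ELF5, EHF and SPDEF. A peak over the gene was thus found for 9 of the 18, against 45% of all protein-coding genes.

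**Figure D4:**
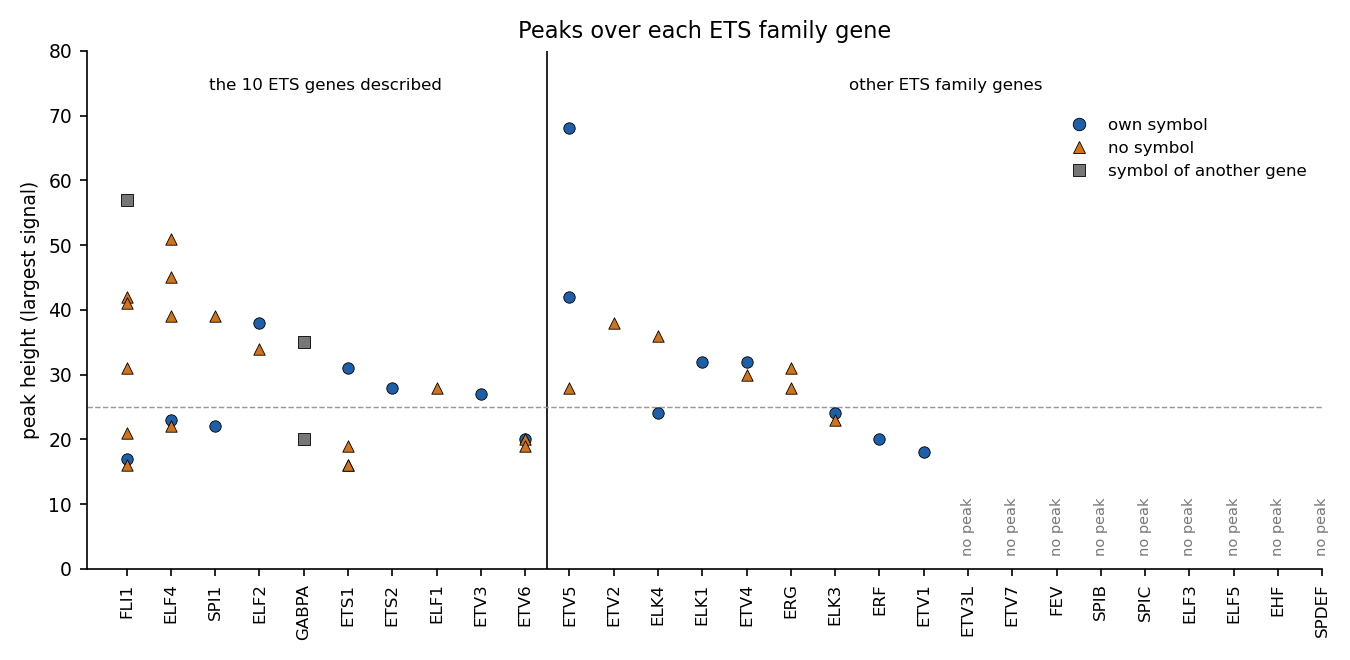
Height of every peak that lies over each of the 28 ETS family genes or carries its symbol. The 10 genes described are on the left of the vertical line and the other 18 on the right. Blue circles carry the gene's own symbol, orange triangles none and grey squares the symbol of another gene. The dashed line marks the list median height of 25; the tallest point on the left is the FLI1 peak labelled SENCR, at 57, the tallest on the right is ETV5, at 68, and 9 genes have no peak.

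Of 5 partner genes, 2 had a labelled peak, against 29.9% of all protein-coding genes. SRF, with which ELK1, ELK3 and ELK4 bind, had one 42 high at its start and an unlabelled one 41 high in intron 2, while GABPB2, a cofactor subunit of GABPA, had one 16 high. The start of GABPB1, the other cofactor subunit, was covered by a peak 29 high that carries the symbol GABPB1-IT1. Neither IRF4 nor IRF8, the partners of PU.1 on composite sites, had a peak over the gene. An unlabelled peak 66 high (rank 59, above 99.5% of the list), chr16:85961713-85962738, lay beyond the 3′ end of IRF8, 29424 bp downstream of its canonical start.

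Of 9 myeloid target genes of PU.1, 6 had a labelled peak, against 29.9% of all protein-coding genes. Their 7 labelled peaks had a median height of 24, below the 26 of all labelled peaks. The highest were those of ITGAM, an integrin chain of monocytes, at 42, of MPO, the myeloperoxidase of granules, at 34 and of CSF1R, the receptor for macrophage colony-stimulating factor, at 33. The CSF3R, ELANE and BTK peaks were 16 or more but no higher than 24 (21 at CSF3R, 19 at ELANE, and 18 and 24 at BTK). The BTK peak 24 high had its apex in RPL36A, 8 bp from the RPL36A start. This apex lay 102 bp upstream of the nearest BTK start site and 4707 bp upstream of the canonical one. The median of 24 was the value of this peak. CYBB, a subunit of the phagocyte oxidase, had only an unlabelled intronic peak 27 high, and FCGR1A and CSF2RA had no peak over the gene. The nearest peak lay 93887 bp from FCGR1A and 1416888 bp from CSF2RA. Whether reads could be placed uniquely at these 2 genes was not examined, so the lack of a peak need not mean a lack of binding.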

How the data were processed

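Cut&Run libraries were single-end, from 2 replicates per condition and antibody. The authors used Trimmomatic for trimming, Bowtie2 for alignment to hg19, Samtools and Bedtools to drop PCR duplicates and blacklisted reads, SEACR (norm union, with the paired control as background) for peaks, and an IDR below 0.05 between replicates. IDR keeps what recurs in both replicates, so weak peaks of either are missing. The deposited values are whole numbers per peak, a total signal and a score, which is the largest signal (height). Whether they come from 1 replicate, a mean or pooled reads is not given in the sources used here, and depth is unknown. In all 15412 peaks the total was below height times width. Symbols are the authors', from UCSC known genes.

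The apex was the midpoint of the largest-signal interval, or its start in the 34 peaks without an end, the labelled SPI1 peak among them. The apex distances and near-apex motif matches of that SPI1 peak therefore rest on the interval start. Distances, introns and UTRs came from GENCODE release 44 mapped to GRCh37, whose chromosomes matched for 23 of 23 names and 15412 of 15412 peak ends. Motifs were exact matches on either strand. All 10 genes, the other ETS family genes with a symbol, 5 partners and 9 PU.1 targets were named by lists. Members and lists were chosen with earlier results of these data known. No test was run, because the list holds 1 value per peak. The counting steps were checked on simulated lists. Python 3.11.15, numpy 2.4.6, pandas 2.3.3, pysam 0.24.0, matplotlib 3.10.9 and samtools 1.23.1 were used.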

Additional observations from a re-analysis of the deposited data

How the results depend on the processing

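No paired analysis was possible because each peak has a single value for both replicates, and no replicate could be left out either. The number of ETS genes with a labelled peak was 8, and it fell to 4 when peaks below the median height were dropped, which shortens the list by construction. It was 9 by an apex within 1 kb of an own start site and 10 by any peak over the gene, which was chosen after the values were seen. The number of peaks at the ETS genes was 23, and it fell to 8 with a limit of 10 kb, at which no unlabelled peak remained, so that height and width of unlabelled peaks had no value there. Under the other 5 settings it was 20 to 29. With a limit of 100 kb, the median height of the unlabelled peaks was 24 in place of 33 and their median width 882 in place of 1219 bp. Means in place of medians gave 25.75 for the height of the labelled peaks and 1496 bp for their width. Among the 23 peaks, GGAAGT was found in 9 near the apex, in 6 within 100 bp of it and in 10 around the middle of the peak. Of all labelled and all unlabelled peaks, 25.5% and 34.8% had it within 100 bp, and 32.0% and 44.9% around the middle. It was found in 17 anywhere in the peak, where wide peaks have more room for a match, against 61.7% of all labelled and 58.9% of all unlabelled peaks. This setting was also chosen after the values were seen. AGGTCA was found in 9 near the apex and in 5 within 100 bp of it (2 of 8 labelled peaks against 9.29% of all, and 3 of 15 unlabelled ones against 17.7%). It was found in 9 around the middle and in 15 anywhere in the peak, the last against 42.2% of all labelled and 43.5% of all unlabelled peaks. GAGGAAGT was found in 1 near the apex, 0 within 100 bp of it, 2 around the middle and 5 anywhere in the peak. Anywhere in the peak, 11.0% of all labelled and 15.4% of all unlabelled peaks had it.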
